A study of Mus musculus with 14 samples.

Results

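The microglia marker and TREM2 signalling genes are 9 named mouse genes, and 8 of them have a row among the 15119 genes analysed. They were found by matching each Ensembl identifier to a symbol. They comprise the surface markers P2ry12, Cx3cr1 and Selplg, the growth factor receptor Csf1r, the cytoplasmic marker Aif1, the receptor Trem2 and the signalling adaptors Tyrobp and Fcer1g. Tmem119, the other named surface marker, was not analysed here. Lyz2, a lysozyme gene of macrophages, monocytes and neutrophils, was set beside them.

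Messenger RNA was measured in 14 libraries of cells sorted from the dentate gyrus, a part of the hippocampus, of untreated mice under standard housing. The cells carried green fluorescent protein (GFP) and were sorted into 3 classes by the fluorescence of dihydroethidium, a dye that reports reactive oxygen species (ROS). There were 5 libraries of class ROS+, 5 of ROS++ and 4 of ROS+++. The mice were of strain B6.Cg-Tg(Nes-EGFP)1Yamm, in which Nestin regulatory elements drive the GFP, so any cell type in which that transgene was active could enter the sort. The labels give all samples as Nestin-positive precursor cells of the adult hippocampus and name no animal, sex, batch, pairing or age in weeks. The p-values therefore rest on how far these libraries spread within a class, and that spread may be technical.

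Microglia are the resident macrophages of the brain parenchyma. They depend on signalling through the Csf1r receptor, and in their resting state they carry the ADP receptor P2ry12 and the fractalkine receptor Cx3cr1. Trem2 is a receptor for lipids and lipoproteins that has no signalling tail of its own. It signals through the adaptor Tyrobp (DAP12), whose ITAM motif recruits the kinase Syk. Fcer1g is a related ITAM adaptor that pairs with Fc receptors. Tyrobp and Fcer1g are made by most myeloid cells, whereas P2ry12 is more particular to microglia.

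Summed over the listed genes, ROS+ libraries held 20832009 to 25313902 reads, ROS++ libraries 18325361 to 23454022 and ROS+++ libraries 12704227 to 20998589. The library ROS+++ replicate 4 was the shallowest. Levels are given as counts scaled to that total (CPM). Where no read was counted, as many as 3 could have been missed at 95% confidence, or 0.119 to 0.236 CPM depending on the library, and this limit covers counting error only. Genes of the labelled precursor cells were not at equal levels in the 3 classes. The summed level of 8 neuronal precursor genes was 9808 to 14578 CPM in ROS+ libraries, 935 to 2145 CPM in ROS++ libraries and 16.1 to 146 CPM in ROS+++ libraries. That of 8 radial glia and astrocyte genes was 915 to 1475, 4870 to 7085 and 2175 to 5333 CPM in the same order. The sum of 12 mural genes, which mark pericytes and vascular smooth muscle, was 18.7 to 536 CPM in ROS+ libraries, 8351 to 25007 CPM in ROS++ libraries and 55793 to 64545 CPM in ROS+++ libraries.

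The promoter windows of 5 of the 9 genes (P2ry12, Cx3cr1, Trem2, Fcer1g and Aif1) and of Lyz2 could be read from RefSeq (build GRCm38.p6), each from 250 bases before to 50 bases after the annotated start. The windows of Trem2 at chr17:48346151-48346450 on the plus strand, Aif1 at chr17:35176003-35176302 on the minus strand, Fcer1g at chr1:171234300-171234599 on the minus strand and Lyz2 at chr10:117282223-117282522 on the minus strand are shown 5′ to 3′ along the gene. The Trem2 and Aif1 windows are shown because they hold GAGGAA, the core bound by PU.1, the myeloid factor encoded by Spi1. Capitals mark the match, which lies on the other strand and so reads as its reverse complement. The Fcer1g and Lyz2 windows are shown because, of the genes with a window, these varied together most closely across libraries.
Trem2: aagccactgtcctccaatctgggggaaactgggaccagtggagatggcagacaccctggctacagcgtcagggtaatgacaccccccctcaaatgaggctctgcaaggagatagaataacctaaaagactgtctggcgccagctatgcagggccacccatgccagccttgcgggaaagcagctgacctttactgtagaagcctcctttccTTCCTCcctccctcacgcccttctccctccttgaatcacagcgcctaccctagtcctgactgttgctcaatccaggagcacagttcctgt
Aif1: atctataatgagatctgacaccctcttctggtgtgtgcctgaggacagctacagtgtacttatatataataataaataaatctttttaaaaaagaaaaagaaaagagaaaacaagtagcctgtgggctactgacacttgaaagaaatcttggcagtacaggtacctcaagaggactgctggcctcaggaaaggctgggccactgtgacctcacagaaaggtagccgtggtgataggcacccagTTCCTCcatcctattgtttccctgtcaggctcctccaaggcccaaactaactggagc
Fcer1g: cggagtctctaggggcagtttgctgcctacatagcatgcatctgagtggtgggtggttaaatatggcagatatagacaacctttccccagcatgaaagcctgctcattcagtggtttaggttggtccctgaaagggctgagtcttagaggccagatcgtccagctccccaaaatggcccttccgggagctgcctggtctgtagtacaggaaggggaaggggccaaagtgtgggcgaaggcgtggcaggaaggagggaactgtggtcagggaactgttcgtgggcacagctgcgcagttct
Lyz2: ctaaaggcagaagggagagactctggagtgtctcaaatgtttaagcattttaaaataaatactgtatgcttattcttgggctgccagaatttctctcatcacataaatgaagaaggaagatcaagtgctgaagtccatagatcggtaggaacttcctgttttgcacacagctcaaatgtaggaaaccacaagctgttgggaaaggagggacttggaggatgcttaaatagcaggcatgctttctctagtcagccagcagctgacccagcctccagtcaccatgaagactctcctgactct
GAGGAA was searched on both strands and is held by 28.3% of 32817 RefSeq windows of this length, and by 2 of the 5 windows of the microglia genes. The leftmost base of the match lies 40 bases before the start in Trem2 and 7 bases before it in Aif1. The composite element of PU.1 and IRF factors, held by 2.72% of windows, was found in none of the 5 windows nor in that of Lyz2. The pattern TGANTCA, a loose form of the AP-1 element that allows any middle base, is held by 7.81% of windows. It was found in the Trem2 window alone among these 6, with its first base 9 bases before the start. That match reads TGAATCA, with A where the AP-1 element has C or G, so it is not an AP-1 consensus site. It does not overlap the GAGGAA match.

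All 8 genes were higher in ROS++ than in ROS+ and higher in ROS+++ than in ROS+. Their summed level was 6.39 ± 5.05 CPM in ROS+ (SD, n = 5), 440 ± 110 CPM in ROS++ (SD, n = 5) and 498 ± 216 CPM in ROS+++ (SD, n = 4). In limma-trend fits with Benjamini-Hochberg adjustment over all 15102 genes tested, 8 of 8 rose in ROS++ against ROS+, where 16.4% of all genes rose and 29.6% changed either way. In ROS+++ against ROS+, 8 of 8 rose, where 19.2% of all genes rose and 59.2% changed either way. The libraries did not overlap for 7 of the 8 in either comparison, against 12.1% of all genes higher without overlap in ROS++ against ROS+ and 16.8% in ROS+++ against ROS+. The median log2 change of the 8 genes was 3.84 in ROS++ against ROS+ and 4.04 in ROS+++ against ROS+, and the median over all genes was -0.03 and -0.44 in these comparisons. Both comparisons share the ROS+ libraries. These are bulk samples, so fewer cells of a type and less RNA per cell cannot be told apart.

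**Figure D1:**
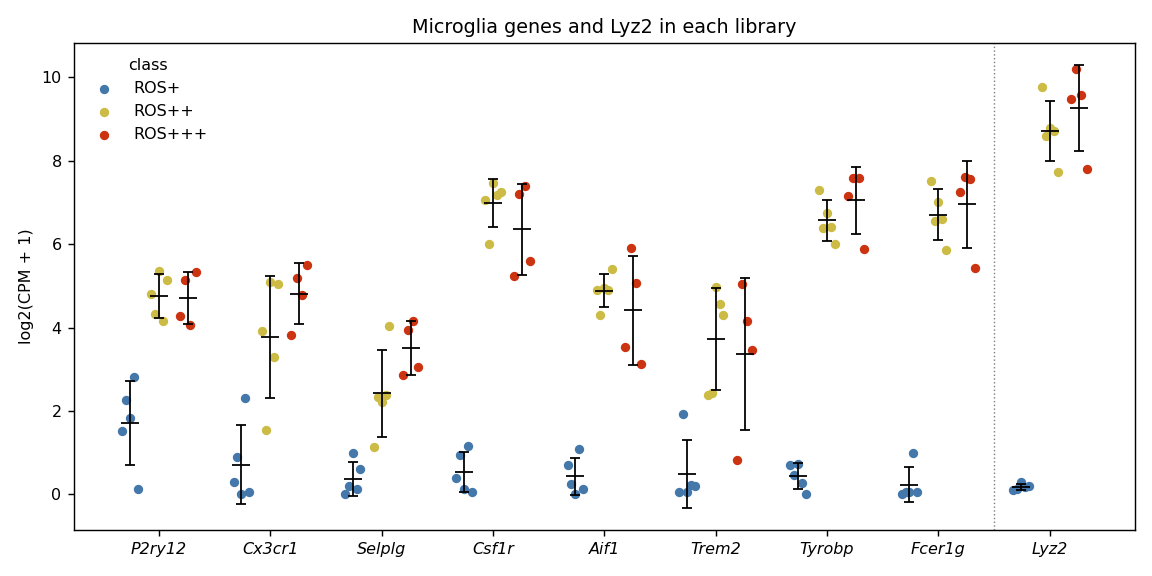
Level of the 8 microglia genes and of Lyz2 in each of the 14 libraries, as log2(CPM + 1), with 1 point per library, coloured by class (ROS+ n = 5, ROS++ n = 5, ROS+++ n = 4). Horizontal bars are class means and whiskers are 1 SD. All 9 genes lie low in ROS+, and ROS++ and ROS+++ overlap for each of them.

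P2ry12, the ADP receptor of resting microglia (chr3:59216272-59262871, minus strand, build GRCm38), had the highest level of the 8 in ROS+. It had 1.86, 3.79, 2.54, 6.01 and 0.0938 CPM in the ROS+ libraries, 26.8, 19.0, 40.0, 16.8 and 34.5 CPM in the ROS++ libraries, and 18.4, 34.1, 15.7 and 39.6 CPM in the ROS+++ libraries. It was detected in every library, and the lowest ROS++ or ROS+++ library lay above the highest ROS+ library. The mean was 2.86 ± 2.21 CPM in ROS+ libraries, 27.4 ± 9.92 CPM in ROS++ libraries and 26.9 ± 11.7 CPM in ROS+++ libraries (SD, n = 5, 5 and 4). The log2 change on the log2(CPM + 1) scale, which understates the change of genes with low levels, was 3.05 ± 0.44 in ROS++ against ROS+ (SE, adjusted p = 3.98e-05, limma-trend) and 3.00 ± 0.47 in ROS+++ against ROS+ (adjusted p = 2.79e-05). P2ry12 shares 9 exonic bases with Med12l on the opposite strand, which had 18.2 to 23.9 CPM in ROS+ libraries, 12.0 to 19.0 CPM in ROS++ libraries and 7.86 to 13.3 CPM in ROS+++ libraries. The protocol keeps no record of strand, so reads over those bases cannot be told apart.

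Cx3cr1, the receptor of the chemokine fractalkine (chr9:119901616-120069879, minus strand), varied more within a class. It had 0.237, 0.864, 0, 3.92 and 0.0469 CPM in the ROS+ libraries, 14.1, 1.93, 33.3, 8.84 and 31.9 CPM in the ROS++ libraries, and 13.03, 35.2, 26.3 and 44.3 CPM in the ROS+++ libraries. ROS++ replicate 2 lay below ROS+ replicate 4, so these classes overlapped, whereas every ROS+++ library lay above every ROS+ library. Its log2 change was 3.07 ± 0.61 in ROS++ against ROS+ (SE, adjusted p = 0.000932, limma-trend) and 4.10 ± 0.65 in ROS+++ against ROS+ (adjusted p = 3.43e-05).

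Selplg encodes PSGL-1, the ligand of P-selectin on leukocytes and microglia (chr5:113818536-113832644, minus strand). It had 0, 0.144, 0.981, 0.0853 and 0.516 CPM in the ROS+ libraries, 1.20, 4.02, 3.62, 4.24 and 15.5 CPM in the ROS++ libraries, and 6.30, 14.5, 16.9 and 7.24 CPM in the ROS+++ libraries. It was low throughout, and ROS++ replicate 5 stood above the other ROS++ libraries. The fitted log2 change was 2.04 ± 0.46 in ROS++ against ROS+ (SE, adjusted p = 0.00252, limma-trend) and 3.13 ± 0.49 in ROS+++ against ROS+ (adjusted p = 2.92e-05).

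Csf1r, the receptor tyrosine kinase for CSF1 and IL-34 (chr18:61100598-61132149, plus strand), was at 1.24 CPM or less in ROS+ libraries and far higher in the other classes. It had 0.316, 0.912, 0.0892, 1.24 and 0.0469 CPM in the ROS+ libraries, 132, 63.3, 177, 143 and 152 CPM in the ROS++ libraries, and 36.6, 146, 166 and 47.1 CPM in the ROS+++ libraries. The lowest ROS++ or ROS+++ library, ROS+++ replicate 1, was well above the highest ROS+ library. Within ROS+++, replicates 1 and 4 were low and replicates 2 and 3 were as high as most ROS++ libraries. Its fitted change was 6.46 ± 0.41 log2 units in ROS++ against ROS+ (SE, adjusted p = 2.59e-09, limma-trend) and 5.81 ± 0.43 in ROS+++ against ROS+ (adjusted p = 3.69e-09). Hmgxb3 overlaps the exons of Csf1r by 873 bases on the opposite strand and had 11.1 to 20.6 CPM in ROS+ libraries, 2.20 to 19.9 CPM in ROS++ libraries and 2.29 to 11.9 CPM in ROS+++ libraries, so reads in the overlap are uncertain. The pericyte receptor gene Pdgfrb lies 15537 bases from Csf1r without overlap.

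Aif1 encodes IBA1, a calcium-binding protein of the actin cytoskeleton used as a stain for microglia and macrophages (chr17:35170991-35176068, minus strand). It had 0.632, 0.192, 0, 1.11 and 0.0938 CPM in the ROS+ libraries, 28.9, 18.6, 29.7, 28.6 and 41.5 CPM in the ROS++ libraries, and 10.6, 58.7, 32.8 and 7.71 CPM in the ROS+++ libraries. The ROS++ libraries lay close together, and ROS+++ replicates 1 and 4 lay below all of them while replicate 2 lay above. Its log2 change was 4.45 ± 0.46 in ROS++ against ROS+ (SE, adjusted p = 8.06e-07, limma-trend) and 3.98 ± 0.48 in ROS+++ against ROS+ (adjusted p = 1.68e-06).

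Trem2 (chr17:48346401-48354147, plus strand), whose promoter window is shown above, varied widely within classes. It had 0.0395, 2.83, 0.0446, 0.171 and 0.141 CPM in the ROS+ libraries, 4.19, 4.40, 30.2, 22.6 and 18.7 CPM in the ROS++ libraries, and 0.764, 31.9, 16.9 and 10.1 CPM in the ROS+++ libraries. The coefficient of variation over the ROS+++ libraries was 87.9%, against 43.0% for its adaptor Tyrobp. ROS+++ replicate 1 lay below ROS+ replicate 2, so these classes overlapped, while every ROS++ library lay above every ROS+ library. On the log2 scale it changed by 3.23 ± 0.70 in ROS++ against ROS+ (SE, adjusted p = 0.00185, limma-trend) and 2.88 ± 0.74 in ROS+++ against ROS+ (adjusted p = 0.00296).

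The adaptors changed with Csf1r by the largest log2 values of the 8. Tyrobp, the adaptor of Trem2 (chr7:30413760-30417585, plus strand), had 0.632, 0.384, 0.669, 0.213 and 0 CPM in the ROS+ libraries, 157, 83.0, 107, 84.4 and 63.0 CPM in the ROS++ libraries, and 142, 191, 189.8 and 57.8 CPM in the ROS+++ libraries. The lowest library of the higher classes, ROS+++ replicate 4, was far above the highest of ROS+. The log2 change was 6.14 ± 0.33 in ROS++ against ROS+ (SE, adjusted p = 4.27e-10, limma-trend) and 6.61 ± 0.35 in ROS+++ against ROS+ (adjusted p = 5.80e-11). Fcer1g, the common gamma chain of Fc receptors (chr1:171229572-171234365, minus strand), had 0, 0.0480, 0.0446, 0.981 and 0.0469 CPM in the ROS+ libraries, 182, 92.8, 127, 96.0 and 56.8 CPM in the ROS++ libraries, and 150.2, 196, 187 and 41.8 CPM in the ROS+++ libraries. Its order over the ROS++ libraries was that of Tyrobp, and its lowest value outside ROS+ was again in ROS+++ replicate 4. The log2 change was 6.47 ± 0.40 in ROS++ against ROS+ (SE, adjusted p = 2.04e-09, limma-trend) and 6.72 ± 0.42 in ROS+++ against ROS+ (adjusted p = 4.09e-10).

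Between the higher classes none of the 8 genes passed the test, although 39.1% of all genes changed in ROS+++ against ROS++, 9.89% higher and 29.2% lower. The median log2 change of the 8 was 0.10, and that of all genes was -0.34. The libraries of these classes overlapped for each of the 8, where 7.48% of all genes were higher and 19.5% lower without overlap. At an unadjusted p under 0.05 the test held 1 of the 8, Selplg. Selplg had 11.2 ± 5.24 CPM in ROS+++ (SD, n = 4) and 5.72 ± 5.60 CPM in ROS++ (SD, n = 5), a log2 change of 1.08 with a 95% interval of 0.06 to 2.11 (adjusted p = 0.0881, limma-trend). Without ROS++ replicate 5 its change was 1.49 and passed (adjusted p = 0.00945, limma-trend).

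The interval of the log2 change in ROS+++ against ROS++ was -0.33 to 2.40 for Cx3cr1, -1.03 to 0.93 for P2ry12 and -1.92 to 1.21 for Trem2. It was -1.55 to 0.27 for Csf1r, -1.49 to 0.54 for Aif1, -0.25 to 1.20 for Tyrobp and -0.63 to 1.14 for Fcer1g. Each of the 8 intervals extends past 1 log2 unit in at least 1 direction, so these libraries do not show that the levels were alike. Without ROS+++ replicate 4, Tyrobp passed with a log2 change of 0.87 (adjusted p = 0.0332, limma-trend), while Selplg did not.

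The scaling mattered for this comparison. With library totals, 25.3% of the genes that changed in ROS+++ against ROS++ were higher, and with TMM, relative log expression and upper-quartile factors the share was 46.4%, 52.2% and 42.4%. In ROS+++ against ROS+ the share was 32.5% with library totals and 47.9%, 50.6% and 43.9% with those factors. The median log2 change of all genes in ROS+++ against ROS++ was -0.34 with totals, -0.04 with TMM, 0.03 with relative log expression and -0.09 with upper-quartile factors. Selplg then passed, with log2 changes of 1.38, 1.45 and 1.33 under these factors (adjusted p = 0.0353, 0.0274 and 0.0400, limma-trend). P2ry12, which did not pass, had -0.05 with totals and 0.27, 0.35 and 0.22 with the factors.

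**Figure D2:**
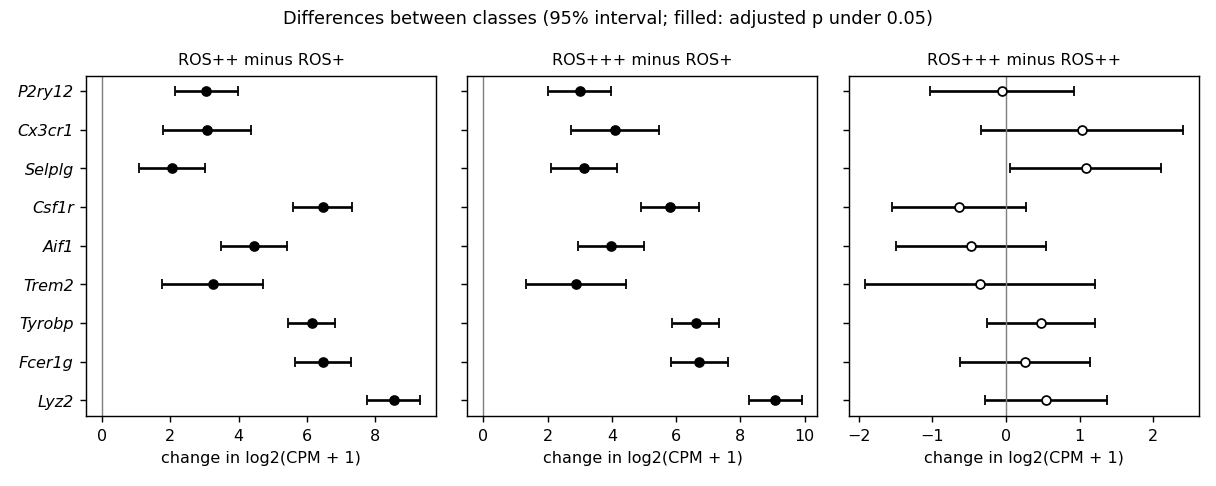
Log2 change, on the log2(CPM + 1) scale, of the 8 microglia genes and Lyz2 in ROS++ against ROS+, ROS+++ against ROS+ and ROS+++ against ROS++, from left to right. Points are fitted changes, lines are 95% intervals, and filled points have an adjusted p under 0.05. All points are filled in the comparisons with ROS+ and none in ROS+++ against ROS++.

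Lyz2 (chr10:117277331-117282321, minus strand) showed a larger change than any of the 8 in both comparisons with ROS+. It had 0.0790, 0.0960, 0.223, 0.128 and 0.141 CPM in the ROS+ libraries, 868, 386, 440.0, 421 and 212 CPM in the ROS++ libraries, and 711, 1173, 759 and 222 CPM in the ROS+++ libraries. Each ROS+ library held 2 to 5 reads of it, close to the detection limit. The mean was 0.133 ± 0.0558 CPM in ROS+ libraries, 465 ± 242 CPM in ROS++ libraries and 716 ± 389 CPM in ROS+++ libraries (SD, n = 5, 5 and 4). The log2 change was 8.54 ± 0.37 in ROS++ against ROS+ (SE, adjusted p = 7.76e-11, limma-trend) and 9.08 ± 0.39 in ROS+++ against ROS+ (adjusted p = 1.08e-11). In ROS+++ against ROS++ it was 0.54 ± 0.39 (adjusted p = 0.290, limma-trend), and 1.03 without ROS+++ replicate 4 (adjusted p = 0.0169). The paralog Lyz1 lies 5476 bases away and is close in sequence, so reads assigned to Lyz2 may in part come from Lyz1.

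Levels of different genes were compared per kilobase of the principal transcript in GENCODE M21. Lyz2 was above all 8 microglia genes in 9 of 9 ROS++ and ROS+++ libraries. In CPM per kb the class means in ROS++ were 354 for Lyz2, 175 for Tyrobp, 164 for Fcer1g, 33.7 for Aif1, 28.4 for Csf1r, 14.7 for Trem2, 11.7 for P2ry12, 4.01 for Cx3cr1 and 3.08 for Selplg. In ROS+++ the order of the class means was the same, with 544 CPM per kb for Lyz2, 257 for Tyrobp, 213 for Fcer1g, 31.4 for Aif1, 21.0 for Csf1r, 13.7 for Trem2, 11.5 for P2ry12, 6.61 for Cx3cr1 and 6.05 for Selplg. Of the neighbours in this order, only Fcer1g and Aif1 in ROS++ had libraries that did not overlap, with 84.2 to 269 and 21.3 to 47.4 CPM per kb, and in ROS+++ these 2 genes overlapped as well. In ROS+ the order was different, with P2ry12 first at 1.22 and Lyz2 last at 0.101 CPM per kb, though several genes there held few reads. Counting all exons of a gene as its length moved Trem2 below P2ry12 and Cx3cr1 in both higher classes, and in ROS++ it also put Csf1r, at 23.1 CPM per kb, above Aif1, at 19.2.

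The ratio of Lyz2 to each gene within a library varied less for the adaptors than for the other 6 genes. Per kb, the median ratio of Lyz2 to Tyrobp was 1.93 in ROS+++ and 1.99 in ROS++, and over the 9 libraries it ranged between 1.44 and 2.63. The ratio to Fcer1g had medians of 2.57 in ROS+++ and 2.13 in ROS++ and ranged between 1.77 and 3.07. The ratio to P2ry12 had medians of 65.1 in ROS+++ and 36.2 in ROS++ and reached 86.0 in ROS+++ and 57.7 in ROS++. That to Cx3cr1 had medians of 106 in ROS+++ and 163 in ROS++, and ranged from 17.1 to 186 in ROS+++ and from 22.7 to 682 in ROS++. For the other genes the medians in ROS+++ and ROS++ were 17.3 and 9.86 for Aif1, 22.8 and 10.5 for Csf1r, 33.8 and 15.4 for Trem2, and 88.8 and 140 for Selplg. The lowest ratios to P2ry12 and Cx3cr1 were in ROS+++ replicate 4 and ROS++ replicate 5, the libraries with the least Lyz2 in their classes.

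**Figure D3:**
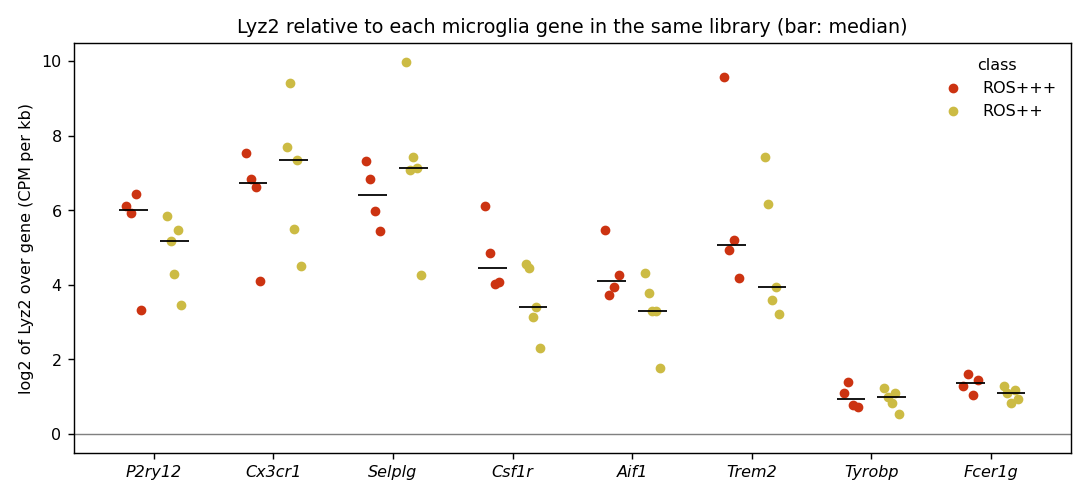
Log2 ratio of Lyz2 to each of the 8 microglia genes within a library, both in CPM per kb, with 1 point per library (ROS+++ n = 4 on the left, ROS++ n = 5 on the right of each gene) and bars at class medians. Tyrobp and Fcer1g lie in a narrow band just above 0, and the other 6 genes lie higher and are more spread out.

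Whether each gene differed between ROS+++ and ROS++ by more or less than Lyz2 did was tested on the difference of log2(CPM + 1) values in each library. None of the 8 passed, where 23.9% of all genes did, 1.52% higher and 22.3% lower relative to Lyz2. The nearest was Csf1r, at -1.18 ± 0.60 log2 units relative to Lyz2 (SE, adjusted p = 0.130, limma-trend), the 1 gene with an unadjusted p under 0.05. It passed without ROS++ replicate 1 (-1.43, adjusted p = 0.0398, limma-trend) and without ROS+++ replicate 4 (-1.42, adjusted p = 0.0220). Of all genes, 6596 of 15093 and 9720 of 15072 passed there, with 4.06% and 1.86% of them higher relative to Lyz2. The median over all genes was -1.17 and -1.38 in these fits, against -0.88 with all libraries. With all libraries Tyrobp was at -0.06 ± 0.60 and Fcer1g at -0.29 ± 0.60. All genes carry the error of Lyz2 in this fit, and the shared estimate of the spread is therefore wide. Fitted without sharing the spread between genes, a choice made after seeing the data, the interval was -0.51 to 0.38 for Tyrobp and -0.74 to 0.17 for Fcer1g, against -3.13 to 1.34 for Trem2 and -1.62 to 2.60 for Cx3cr1, and none of the 8 passed.

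Deviations from the class mean were compared across the 9 ROS++ and ROS+++ libraries, as a description of these libraries. Points share a library, its depth and its class mean. Tyrobp and Fcer1g had a Pearson r of 0.99 (Spearman rho 1.00, n = 9), Fcer1g and Lyz2 0.97 (rho 0.98) and Tyrobp and Lyz2 0.97 (rho 0.98). Without the 2 libraries farthest from the median of Lyz2, r was 0.89 for either adaptor with Lyz2. Csf1r varied with Aif1 (r = 0.88, rho 0.90) and with Trem2 (r = 0.80, rho 0.82), and these r were 0.94 and 0.85 without the 2 farthest libraries. P2ry12 and Cx3cr1 had an r of 0.75 (rho 0.77, and 0.78 for r without the 2 farthest libraries). Trem2 and its adaptor Tyrobp had an r of -0.01 (rho 0.18). P2ry12, Cx3cr1 and Selplg had r of -0.31, -0.22 and -0.33 with Lyz2, and without the 2 farthest libraries r was 0.43, 0.42 and -0.25, so for P2ry12 and Cx3cr1 the sign rested on those libraries. Over the 28 pairs of microglia genes r ranged from -0.37 to 0.99 with a median of 0.42, and 20 pairs were above 0.

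**Figure D4:**
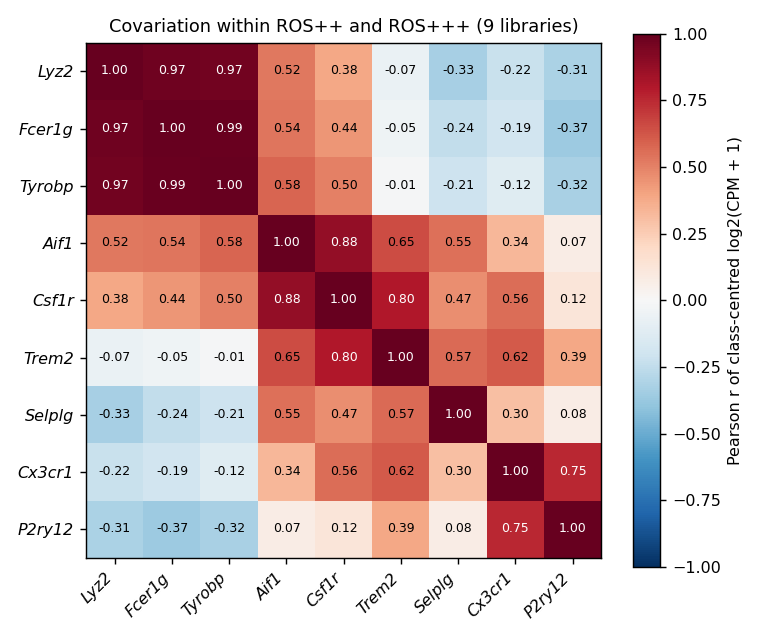
Pearson r between class-centred log2(CPM + 1) values of the 8 microglia genes and Lyz2 over the 9 ROS++ and ROS+++ libraries, with genes on both axes and r as colour and number. Lyz2, Fcer1g and Tyrobp form a block with r of 0.97 to 0.99, and Aif1, Csf1r and Trem2 a looser one with r of 0.65 to 0.88.

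Marker genes were laid against the same genes. Cd68, a lysosomal protein of phagocytes, had an r of 0.94 with Tyrobp and 0.14 with Cx3cr1. The perivascular macrophage genes Mrc1, Cd163 and F13a1 had r of 0.87, 0.83 and 0.87 with Csf1r and 0.75, 0.83 and 0.71 with Trem2, but 0.42, 0.23 and 0.51 with Lyz2. The microglia genes Fcrls, P2ry13 and Siglech had r in much the same range, 0.79, 0.70 and 0.77 with Csf1r and 0.70, 0.80 and 0.49 with Trem2, and 0.27, 0.05 and 0.22 with Lyz2. The monocyte genes Ly6c2, Ccr2 and Plac8 had r of 0.67, 0.76 and 0.43 with Lyz2, and -0.49, -0.53 and -0.62 with Cx3cr1. The pericyte genes Pdgfrb and Vtn had r of 0.64 and 0.46 with Lyz2, and Il34, which non-myeloid cells make, had 0.83. These r of marker genes were not recomputed without the farthest libraries. The 10 genes most like the mean of the 8, among 10066 genes of at least 10 CPM in these 9 libraries, were Fbxo5, Il4ra, Bmp2, Rap2b, Epb41, Aspscr1, Cblb, Gpr65, Cd83 and Adprh, with r of 0.94 to 0.97 over 9 libraries. As these are the highest of 10066 values over 9 libraries, r of this size may arise by chance, which was not tested. Fbxo5, the first of them, had means of 25.2, 51.2 and 2.22 CPM in ROS+, ROS++ and ROS+++.

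Most other genes of microglia were higher in ROS++ and in ROS+++ than in ROS+. Of 17 tested, 14 rose and none fell in ROS++ against ROS+, and 13 rose and 1 fell in ROS+++ against ROS+, with median log2 changes of 2.91 and 2.66. Between the higher classes, 2 rose and 2 fell in ROS+++ against ROS++. Over all genes, 16.4% rose and 13.2% fell in ROS++ against ROS+, and 19.2% and 40% did in ROS+++ against ROS+. In ROS+++ against ROS++, 9.89% rose and 29.2% fell. The 2 of 17 that rose there lie near the share of all genes, and the 2 that fell lie below it. P2ry13, a neighbour of P2ry12 that encodes another ADP receptor, had 0.665 ± 1.12 CPM in ROS+ libraries, 24.8 ± 6.90 CPM in ROS++ libraries and 15.9 ± 9.42 CPM in ROS+++ libraries (SD, n = 5, 5 and 4), and rose in ROS++ and in ROS+++ against ROS+ by 4.10 and 3.27 log2 units. Sall1, a transcription factor of microglial identity that other neural cells also express, was higher in ROS++ than in ROS+ by 1.75 log2 units and lower in ROS+++ than in ROS++ by 1.32, and it did not pass in ROS+++ against ROS+ (0.44, adjusted p = 0.287, limma-trend). Siglech, a lectin of microglia, had 0.900 ± 0.734, 8.90 ± 6.55 and 3.23 ± 4.06 CPM in ROS+, ROS++ and ROS+++, and passed in ROS++ against ROS+ (1.99 log2 units, adjusted p = 0.0315, limma-trend) but not in ROS+++ against ROS+ (0.78, adjusted p = 0.360).

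Downstream of Trem2, 13 of 19 genes of TREM2 and ITAM signalling rose and 2 fell in ROS++ against ROS+ (1 fell with the other scaling factors), and 14 rose and 2 fell in ROS+++ against ROS+. The shares of all genes were 16.4% higher and 13.2% lower in the first comparison, and 19.2% and 40% in the second. The kinase Syk had 0.272 ± 0.283 CPM in ROS+ libraries, 7.11 ± 5.00 CPM in ROS++ libraries and 9.97 ± 4.69 CPM in ROS+++ libraries, and rose by 2.39 and 3.03 log2 units in ROS++ and in ROS+++ against ROS+. Hcst (DAP10), the adaptor whose gene lies 127 bases from Tyrobp, had 0.107 ± 0.154, 1.99 ± 1.18 and 2.31 ± 0.899 CPM, and rose by 1.35 and 1.55. The phosphatases Ptpn6 and Inpp5d, which limit ITAM signals, also rose, by 3.83 and 2.16 log2 units in ROS++ against ROS+. Plcg2, the phospholipase below Syk, did not pass in any comparison, with 3.26 ± 2.16, 9.31 ± 7.67 and 6.77 ± 5.60 CPM. Of the 19, 4 rose and 2 fell in ROS+++ against ROS++ (5 rose and 0 or 1 fell with the other scaling factors), where 9.89% of all genes rose and 29.2% fell. The kinase subunit gene Pik3cd, with 67.6 ± 22.8 CPM in ROS+++ and 19.8 ± 9.52 CPM in ROS++, rose by 1.81 log2 units (adjusted p = 0.000701, limma-trend).

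Of the genes for TREM2 ligands and shedding, 3 of 6 rose in ROS++ against ROS+, and 3 rose and 2 fell in ROS+++ against ROS+, where none fell with the other scaling factors. Over all genes, 16.4% rose in the first comparison, and 19.2% rose and 40% fell in the second. Apoe, the lipid carrier, had 45.4 ± 9.27, 311 ± 104 and 282 ± 121 CPM in ROS+, ROS++ and ROS+++, and rose by 2.71 and 2.50 log2 units in ROS++ and in ROS+++ against ROS+. Adam17, a protease that sheds Trem2, did not pass in any comparison, with 52.7 ± 14.5, 65.8 ± 8.64 and 55.8 ± 13.3 CPM. A list of 14 receptors was tested, most of which pair with Tyrobp or Fcer1g, though some, such as Fcgr2b, do not. Of these, 11 of 14 rose in ROS++ against ROS+ (10 with the other scaling factors) and 13 in ROS+++ against ROS+, with none lower. The Fc receptor genes Fcgr3 and Fcgr1 had 80.6 ± 40.9 and 17.1 ± 6.92 CPM in ROS++, and 66.6 ± 50.5 and 11.2 ± 7.81 CPM in ROS+++. Of the 14, 5 rose in ROS+++ against ROS++ (6 with the other scaling factors), where 9.89% of all genes rose. The lectin receptor Clec4e led them, with 19.2 ± 9.01 CPM in ROS+++ and 2.23 ± 2.54 CPM in ROS++ (2.89 log2 units, adjusted p = 0.000187, limma-trend).

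The ligands of the receptors did not move as 1 group, with 1 of 3 tested higher in ROS++ against ROS+, 1 higher and 1 lower in ROS+++ against ROS+, and 1 higher and 2 lower in ROS+++ against ROS++. In these comparisons 16.4%, 19.2% and 9.89% of all genes rose, and 13.2%, 40% and 29.2% fell. Il34, a ligand of Csf1r that neurons and other non-myeloid cells make, had 1.79 ± 1.74, 76.7 ± 36.7 and 296 ± 98.4 CPM in ROS+, ROS++ and ROS+++ (SD, n = 5, 5 and 4). It rose by 4.90 log2 units in ROS++ against ROS+, by 6.88 in ROS+++ against ROS+ and by 1.98 in ROS+++ against ROS++ (adjusted p = 3.37e-08, 2.37e-10 and 0.000894, limma-trend). Csf1, the other ligand, had 10.7 ± 2.74, 17.1 ± 4.16 and 8.03 ± 4.05 CPM, and fell by 1.06 log2 units in ROS+++ against ROS++, a change that did not pass with the other scaling factors (adjusted p of 0.0641 to 0.116, limma-trend). Cx3cl1, the ligand of Cx3cr1, which neurons make, had 13.8 ± 3.33, 11.7 ± 6.97 and 1.04 ± 0.973 CPM, and fell by 2.95 and 2.57 log2 units in ROS+++ against ROS+ and against ROS++. Mural genes moved in the same direction as Il34. All 12 rose in both comparisons with ROS+ and 8 of 12 in ROS+++ against ROS++ (9 with the other scaling factors), and none of the defining genes Pdgfrb, Rgs5 and Vtn was at 0 in any library. The part of mural cells in the level of Il34 was not tested.

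Genes of other myeloid cells moved with the 8. Against 16.4% and 19.2% of all genes, 19 of 20 perivascular macrophage genes rose in ROS++ against ROS+ and 17 in ROS+++ against ROS+, with none lower. Their summed level was 46.8 to 88.1 CPM in ROS+ libraries, 843 to 3370 CPM in ROS++ libraries and 481 to 5016 CPM in ROS+++ libraries. A few genes held much of this sum. Dab2 held 65.7 ± 13.6 CPM of it in ROS+, and Cd74 held 426 ± 520 CPM in ROS++ and 934 ± 1338 CPM in ROS+++. Mrc1, the mannose receptor, had 0.213 ± 0.181, 182 ± 76.7 and 104 ± 101 CPM in ROS+, ROS++ and ROS+++, and its log2 change was 7.13 in ROS++ and 5.43 in ROS+++ against ROS+. The scavenger receptor Cd163 had 0.0845 ± 0.0978, 43.9 ± 17.2 and 25.9 ± 29.6 CPM, and the chemokine gene Pf4 0.0701 ± 0.106, 110 ± 67.1 and 70.0 ± 57.5 CPM. Cd163 and Pf4 were each at 0 in 2 of 14 libraries, and Mrc1 and F13a1 in none. Of the 20, 1 rose and 3 fell in ROS+++ against ROS++, where 9.89% of all genes rose and 29.2% fell. With the other scaling factors 1 or 2 of the 20 fell. Their median log2 change in that comparison was -1.49, against -0.34 over all genes.

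Of 8 monocyte and neutrophil genes, 2 rose in ROS++ against ROS+ (0 or 1 with the other scaling factors), and 6 rose and 1 fell in ROS+++ against ROS+. Their summed level was 204 to 290 CPM in ROS+ libraries, 165 to 415 CPM in ROS++ libraries and 72.2 to 333 CPM in ROS+++ libraries, and Vcan, which precursors of oligodendrocytes also make, held 248 ± 36.2, 228 ± 81.0 and 17.8 ± 18.3 CPM of it. Ly6c2 and Ccr2, genes that define inflammatory monocytes, had 8.24 ± 6.76 and 10.7 ± 8.76 CPM in ROS+++, against 0.0535 ± 0.0396 and 0.107 ± 0.0490 CPM in ROS+, and were at 0 in 3 and 2 of 14 libraries. Plac8 had 72.6 ± 55.3 CPM in ROS+++ and 16.6 ± 23.9 CPM in ROS++, a rise of 3.26 log2 units (adjusted p = 0.0113, limma-trend). Of 19 genes shared by most myeloid cells, 17 rose in ROS++ against ROS+, 19 in ROS+++ against ROS+ and 6 in ROS+++ against ROS++ (8 or 9 with the other scaling factors), with none lower. Ptprc (CD45) had 71.5 ± 16.8 CPM in ROS+++ and 24.6 ± 14.9 CPM in ROS++, a rise of 1.66 log2 units (adjusted p = 0.00394, limma-trend). The single lymphocyte gene tested, Cd79b, had 1.63 ± 1.17 CPM in ROS++ and 1.76 ± 1.37 CPM in ROS+++. Of 8 endothelial genes, 1 rose in ROS++ against ROS+, 4 in ROS+++ against ROS+ (5 with the other scaling factors) and 2 in ROS+++ against ROS++ (3 with those factors). Of 8 oligodendrocyte lineage genes, 2 rose in ROS++ against ROS+, 1 rose and 5 fell in ROS+++ against ROS+, and 1 rose and 7 fell in ROS+++ against ROS++ (5 or 6 fell with the other scaling factors), where their median log2 change was -3.29. Over all genes, 16.4% rose in ROS++ against ROS+, and 19.2% rose and 40% fell in ROS+++ against ROS+. In ROS+++ against ROS++, 9.89% rose and 29.2% fell. Counts of 1 or 2 higher in 8 genes, as in ROS++ against ROS+, lie near the share of all genes. Those counts are not a result about these lists. The part of these cell types in the levels of the 8 genes was not tested.

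Transcription factors of myeloid cells rose with the 8, with 10 of 13 higher in ROS++ against ROS+, 12 in ROS+++ against ROS+ (13 with the other scaling factors) and 5 in ROS+++ against ROS++ (7 with those factors), and none lower. Spi1, which encodes PU.1, had 0.0268 ± 0.0245, 3.17 ± 1.55 and 4.98 ± 2.24 CPM in ROS+, ROS++ and ROS+++, and rose by 1.93 and 2.46 log2 units in ROS++ and in ROS+++ against ROS+. Irf8, a partner of PU.1, had 0.707 ± 0.430, 8.53 ± 4.47 and 7.38 ± 5.75 CPM. Mef2c, which vascular and neural cells also make, had 454 ± 25.6 CPM in ROS+++, against 162 ± 66.6 CPM in ROS++, and rose by 1.59 log2 units (adjusted p = 5.03e-05, limma-trend). Of 21 genes of the disease-associated state that Trem2 is known to promote in mouse microglia, 14 rose and 1 fell in ROS++ against ROS+, 14 rose and 5 fell in ROS+++ against ROS+ (15 and 4 with the other scaling factors), and 4 rose and 7 fell in ROS+++ against ROS++ (5 rose and 4 or 5 fell with the other scaling factors). Over all genes, with library totals, 16.4% rose and 13.2% fell in ROS++ against ROS+, and 19.2% and 40% did in ROS+++ against ROS+. In ROS+++ against ROS++, 9.89% rose and 29.2% fell. The 7 of 21 that fell there lie near the share of all genes, and the 5 of 21 that fell in ROS+++ against ROS+ lie below it. Clec7a had 9.80 ± 6.74 CPM in ROS++ and 26.9 ± 13.7 CPM in ROS+++, against 0.00892 ± 0.0199 CPM in ROS+, where 4 libraries held no read. Cd9, a tetraspanin that many neural cells make, had 351 ± 120 CPM in ROS+++, against 2616 ± 733 CPM in ROS++, and fell by 2.93 log2 units (adjusted p = 3.85e-06, limma-trend).

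**Figure D5:**
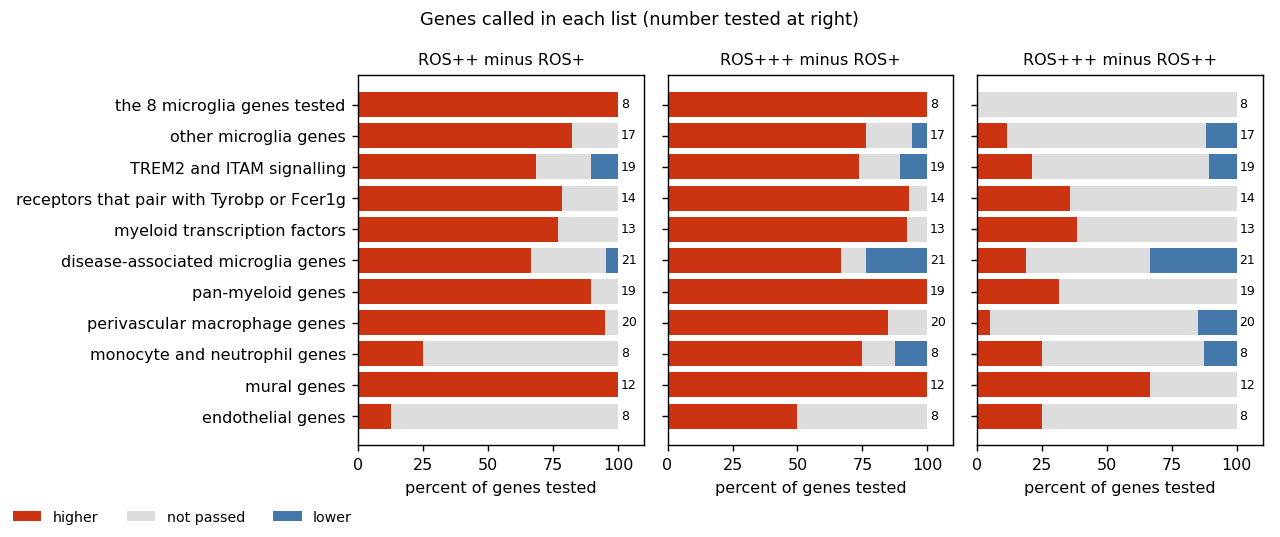
Share of the tested genes of each list that were higher, lower or did not pass (adjusted p under 0.05, limma-trend) in ROS++ against ROS+, ROS+++ against ROS+ and ROS+++ against ROS++, with the number tested at the right of each bar. The 8 microglia genes are all higher in the comparisons with ROS+ and do not pass in ROS+++ against ROS++, where 8 of 12 mural genes are higher. The list labelled as receptors that pair with Tyrobp or Fcer1g also holds genes that do not pair with them, such as Fcgr2b. Of all genes, 16.4%, 19.2% and 9.89% were higher and 13.2%, 40% and 29.2% lower in these comparisons.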

How the data were processed

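The authors deposited 1 table of log2 values per gene for the 14 libraries, and all of its sample columns were used. The tools STAR and edgeR and the build mm10 are named per the submitters' processing notes. Their roles and versions, the counter and the annotation are not given in sources used here. Per the labels' protocols, cDNA was primed on poly-A tails, amplified over 12 cycles and sheared, without strand record or molecular identifiers. The deposited log2 values were turned back into whole reads (within 0.001 reads) and scaled to library totals over the listed genes. Reads of unlisted genes are not in these totals, so CPM may be slightly high.

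From these, log2(CPM + 1) of genes with at least 1 CPM in at least 4 libraries was tested with limma-trend (limma 3.58.1, R 4.3.3, robust settings, 14 libraries in 1 fit, 11 residual degrees of freedom before moderation), with Benjamini-Hochberg adjustment and a threshold of 0.05. This test fits the log2 unit of the deposited values, and limma-voom on the recovered reads was run as an alternative. The fit was tested on simulated data. Symbols, positions and transcript lengths came from GENCODE M21, which may differ from the authors' annotation.

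The genes, lists and tests were chosen with earlier results of these data known. The genes named are the 8 microglia genes and Lyz2, and from each list its defining genes and those with the smallest p (3 in ROS++ against ROS+, 2 in ROS+++ against ROS++), of which a part is printed; the marker correlations were chosen after seeing the data. Replicates are numbered in sample order. Alternatives covered the pseudocount, filter, scaling, tool, libraries left out, a block on sets of library numbers and the gene in the denominator.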

Additional observations from a re-analysis of the deposited data

Results flagged for a closer look

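In 4 of the 27 groups of libraries looked at (9 genes in 3 classes), 1 library lay far from the nearest of the others for the spread of its group. For normally distributed values chance alone flags about 1 in 20 such groups, and its rate for low counts such as those in ROS+ was not tested. Cx3cr1 had 3.92 CPM in ROS+ replicate 4, against 0.864 CPM or less in the other ROS+ libraries. In the same library Fcer1g had 0.981 CPM, against 0.0480 CPM or less in the others. Trem2 had 2.83 CPM in ROS+ replicate 2, against 0.171 CPM or less in the others. Selplg had 15.5 CPM in ROS++ replicate 5, against 4.24 CPM or less in the others, and without that library its log2 change in ROS+++ against ROS++ passed (1.49, adjusted p = 0.00945, limma-trend).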

How the results depend on the processing

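In the comparisons with ROS+, all 466 values of single genes under the alternatives tried kept their direction and their call, and 7 to 8 of the microglia genes rose in each; with a filter of 10 CPM, Selplg was not tested. In ROS+++ against ROS++ the count that passed was 0, and 1 with TMM, relative log expression or upper-quartile factors, and 0 to 1 with a library left out. Relative to Lyz2 it was 0, 0 to 1 with a library left out, and 1 with the replicate block described below. These were Selplg, Tyrobp and Csf1r, as given with the results.

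Some values that passed no test turned their sign. In ROS+++ against ROS++, P2ry12 (-0.05) was 0.35, 0.27 and 0.22 with relative log expression, TMM and upper-quartile factors, and between -0.26 and 0.16 with a library left out. Trem2 (-0.35) was 0.0051 with relative log expression factors and -0.91 to 0.50 with a library left out. Relative to Cd68 in place of Lyz2, Fcer1g was 0.64, P2ry12 0.33, Trem2 0.028 and Tyrobp 0.86. Relative to Lyz2 and with a library left out, Cx3cr1 ranged from -0.22 to 1.05, Selplg from -0.040 to 1.19, Trem2 from -1.49 to 0.027 and Tyrobp from -0.16 to 0.069. The cause was not tested. The counts of the other gene lists under other scaling factors were added after seeing the data, and those printed without such a value moved by at most 1 gene.

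The labels state no pairing, but the library numbers in the titles run in 5 consecutive sets of different classes. Across all genes tested, deviations from the class mean had r of 0.083 to 0.23 between the ROS+++ and ROS++ libraries of a set, and r was over 0.1 in 1 of 4 such pairs; between other libraries of these classes r was -0.15 to 0.16, and 3 of the 4 pairs matched each other best. In ROS++ and ROS+ libraries of a set r was 0.034 to 0.13, and in ROS+++ and ROS+ libraries -0.022 to 0.089. A fit with these sets as a replicate block was added after seeing the data. It called 8 of 8 genes in either comparison with ROS+ and 0 in ROS+++ against ROS++. Of all 15102 genes it called 4699 in ROS++ against ROS+, 9065 in ROS+++ against ROS+ and 6134 in ROS+++ against ROS++. In the last of these, Tyrobp came nearest (0.60, adjusted p = 0.0921, limma-trend), and Cx3cr1 was at 1.00 and Lyz2 at 0.66 (adjusted p = 0.236 and 0.112). Relative to Lyz2 the block called 1 of the 8 genes, Csf1r (-1.31, adjusted p = 0.0472, limma-trend). There 5817 of 15101 genes passed, with 5.74% of them higher, and the median over all genes was -1.02. In ROS+, several of the genes held few reads, so their fold changes rest on counts near the detection limit.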
